A study of Mus musculus with 30 samples.

Results

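The question addressed was what a GLP-1R agonist changes in bone marrow (BM) when it is added to an anti-IL-17A antibody. RNA sequencing counts of BM from mice given both agents (Combo, n = 3) were compared with those from mice given the antibody alone (n = 3), over all 13353 genes of the BM table. These are 6 of the 30 libraries of the series and 6 of its 15 BM libraries. All mice of these groups were Ob/Ob recipients, which lack leptin and become obese, on a C57BL/6J background. They had been lethally irradiated and transplanted with equal numbers of BM cells from Shp2E76K/+;LysM-Cre+ donors (CD45.2+) and Boy/J competitors (CD45.1+), so each marrow was a mixture of mutant and competitor cells, with whatever host cells survived. From 8 weeks after transplantation they were treated for 30 days with the GLP-1R agonist beinaglutide at 3 mg/kg under the skin, with the anti-IL-17A antibody at 200 µg a mouse into the peritoneum 3 times a week, with both, or with vehicle. The labels give an age of 12 to 14 weeks, name both sexes, and describe the groups as matched for sex and the replicates as 3 mice per group. They do not say at which point of the experiment that age applies, and the paper gives another age range, for recipients at irradiation. Vehicle (n = 3) and agonist-alone (n = 3) libraries were used for the effect of the agonist without the antibody. Wild type (WT) libraries (n = 3), for which no treatment is given, entered the fit and the figures. The paper describes its WT recipients as lean mice that also received Shp2E76K/+ cells. The LysM-Cre driver acts in myeloid cells, so the allele recombines mainly in that lineage.

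GLP-1R is a G protein-coupled receptor that raises cAMP and is known for insulin release and weight control. IL-17A is a cytokine of Th17 cells and some innate lymphocytes that acts through IL-17RA on stromal and myeloid cells to induce neutrophil growth factors and chemoattractants. Shp2, encoded by Ptpn11, is a phosphatase that feeds growth factor signals into Ras and ERK, and activating mutations of it occur in juvenile myelomonocytic leukemia.

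The 6 libraries held 32662280 to 36968230 counts on genes, and the 15 BM libraries 31086184 to 39925495. The coefficient of biological variation between replicates was 3.51%, and no replicate pair agreed within sampling noise, with chi-square per degree of freedom of 2.02 to 4.21 in all pairs but those with WT replicate 1 (26.6 and 34.8). In an alternative chosen after seeing the data, without that library, which entered only the scaling and the estimate of spread, 781 genes were called and not 757, of which 755 were shared. Between 12.4% and 12.5% of an antibody library and between 14.9% and 15% of a Combo library fell on its 10 most abundant genes. The TMM scaling factors were 1.048 to 1.051 with the antibody and 0.9165 to 0.9181 in Combo. Fold changes are therefore relative to most genes and not to total RNA: the median log2 fold change of all genes was 0.02, and -0.17 when scaled by library totals alone. A gene was called at a false discovery rate (FDR) below 0.05 with a log2 fold change beyond 1 in either direction.

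The sex-linked genes, chosen after their values were seen, separated the groups and are given before all other results. Xist, the RNA that coats the inactive X chromosome of female cells (X: 103460366-103483254), had normalized counts of 88, 93 and 113 with the antibody and 3657, 3644 and 3528 in Combo (log2 fold change 5.19, SE 0.074). The Y-linked genes moved the other way: Ddx3y, an RNA helicase, had 1472, 1460 and 1488 with the antibody and 147, 163 and 177 in Combo (-3.18). Eif2s3y, a translation initiation subunit, fell from 2301, 2322 and 2273 to 146, 149 and 188 (-3.83). Kdm5d and Uty, histone demethylases, fell to 11% and 9.19% of their antibody level. Every Combo library held Xist and low Y-linked RNA, and every antibody library held high Y-linked RNA and low Xist. Vehicle libraries held both, with Xist at 6339 to 6712 and Ddx3y at 695 to 743, and agonist-alone libraries had Xist at 0 to 6 and Ddx3y at 1802 to 2015. The X-linked partners of these genes, which escape inactivation, were higher in Combo within the fold limit: Kdm5c by 0.65, Kdm6a by 0.58 and Eif2s3x by 0.52 on the log2 scale. Ddx3x had 0.18, and -0.02 when scaled by library totals. The labels describe the groups as matched for sex, yet the sequenced marrow differed between groups in these genes. Each marrow mixed donor, competitor and surviving host cells. Whether the sex of the recipients, the sex of the transplanted cells or the shares of these cells differed was not tested. Replicates of a group were alike in these genes, and whether they hold RNA of separate mice was not tested, so SEs and p-values may hold no spread between mice. The sex of the sequenced cells and the addition of the agonist cannot be told apart in this comparison, and the same applies to each difference below.

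**Figure D1:**
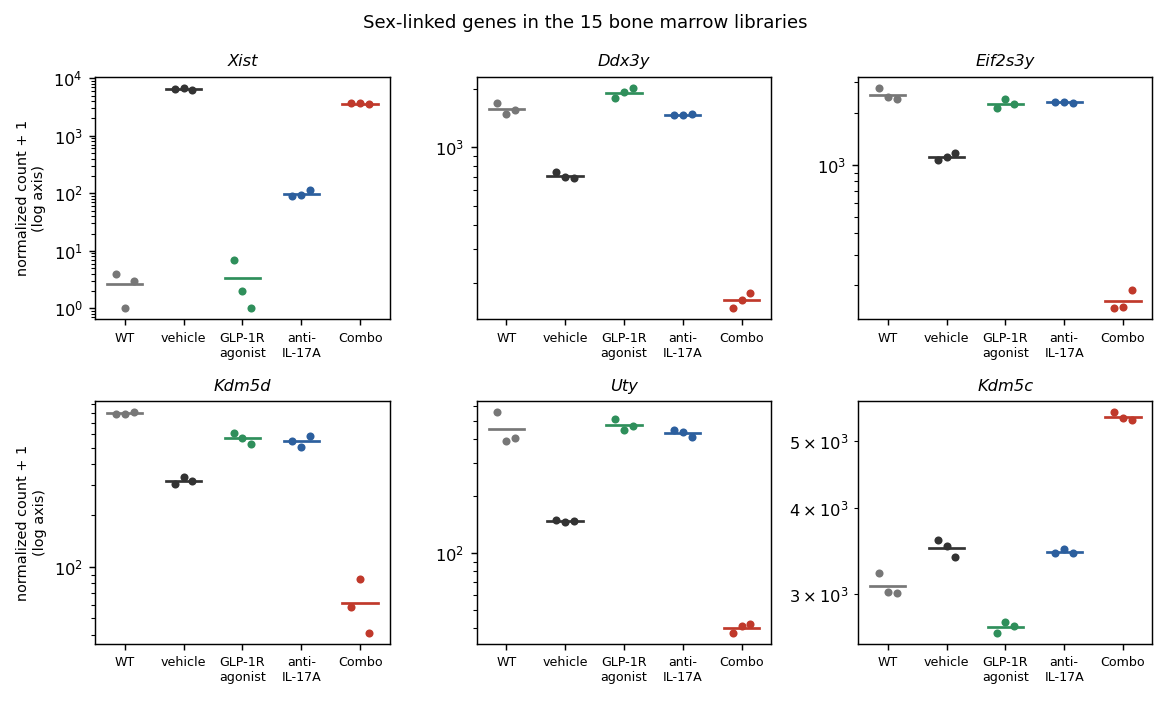
Normalized counts plus 1 (log axis) of Xist, 4 Y-linked genes and the X-linked Kdm5c in the 15 BM libraries by group; points are libraries and bars are means. The 3 Combo libraries hold Xist at 3528 to 3657 and Ddx3y at 147 to 177, against 88 to 113 and 1460 to 1488 with the antibody.

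Adding the agonist to the antibody was followed by more genes lower than higher. Of 13353 genes, 139 (1.04%) were called higher and 618 (4.63%) lower in Combo. Replicates did not overlap for 137 of the higher and 592 of the lower genes, and for 61% of all genes tested. Without the fold limit, 4121 genes (30.9%) were higher and 2894 (21.7%) lower at FDR below 0.05, so the lower genes were the more numerous only past the fold limit. Low counts supply many calls: 493 of the 757 genes averaged under 100 counts, leaving 61 higher and 203 lower among the better counted. Beyond a log2 fold change of 2 there were 35 higher and 51 lower genes. In a test against the fold limit itself (glmTreat), 68 genes were higher and 125 lower.

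**Figure D2:**
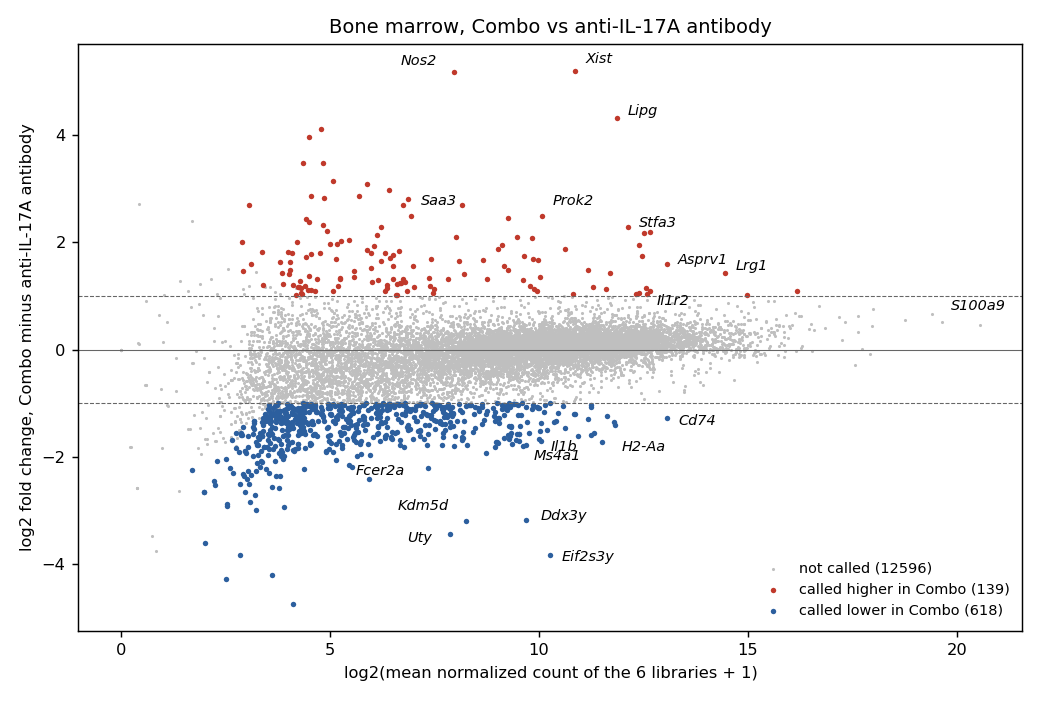
Log2 fold change of Combo minus antibody (y axis) against log2 of the mean normalized count plus 1 of the 6 libraries (x axis), 1 point per gene, with called genes in red (139 higher) and blue (618 lower) and dashed lines at the fold limit. Xist, Nos2 and Lipg stand highest among well-counted genes, and the Y-linked genes Eif2s3y, Uty, Ddx3y and Kdm5d lie lowest among them.

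After Xist, the genes with the highest increases among those averaging at least 100 counts were an inflammatory enzyme, a lipase and an acute-phase gene. Nos2, the inducible nitric oxide synthase of activated myeloid cells (11: 78920787-78960254), had normalized counts of 12, 12 and 16 with the antibody and 443, 495 and 525 in Combo (log2 fold change 5.17, SE 0.156, adjusted p = 1.75e-26 by edgeR's quasi-likelihood test). Lipg, endothelial lipase, which cleaves phospholipids of HDL, had 332, 378 and 367 with the antibody and 6988, 7321 and 7046 in Combo (4.31, SE 0.0467). Saa3, an acute-phase apolipoprotein of macrophages and fat (7: 46711998-46715700), had 28, 26 and 33 with the antibody and 207, 190 and 213 in Combo (2.80, SE 0.115). For all 3 genes the groups lay far apart, and the absence of overlap was a condition of their selection. Vehicle levels were higher than those of Combo: Nos2 at 1712 to 1831, Lipg at 10992 to 11198 and Saa3 at 70778 to 75149.

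The rest of the 10 highest covered adhesion, chemotaxis and metabolism. Prok2, prokineticin 2, a small secreted peptide made by neutrophils (6: 99711299-99726392), had 370, 324 and 283 with the antibody and 1900, 1746 and 1840 in Combo (2.49, SE 0.0806), above its vehicle level of 82 to 116. F11r, a junctional adhesion molecule of leukocytes and endothelium, rose from 82, 71 and 76 to 526, 483 and 473 (2.69). Entpd3, an ectonucleotidase that degrades extracellular ATP, rose from 182, 171 and 208 to 1018, 1081 and 977 (2.46). Svep1, an extracellular matrix adhesion protein, rose from 25, 36 and 23 to 188, 168 and 192. Fah, the last enzyme of tyrosine breakdown, rose from 39, 31 and 40 to 178, 244 and 194 (2.48).

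Further called genes of high expression, chosen after their values were seen, were of mixed function. Lrg1, a leucine-rich glycoprotein stored in neutrophil granules (17: 56119678-56122001), had 11784, 12464 and 12218 with the antibody and 32175, 33008 and 32461 in Combo (1.42, SE 0.0283). Asprv1, an aspartic protease, rose from 4285, 4196 and 4254 to 12919, 12984 and 12590 (1.60). Ifitm1, an interferon-induced membrane protein, rose by 1.75 and Cd38, an NAD-consuming ectoenzyme, by 1.88. Upp1, uridine phosphorylase, Tgm1, a transglutaminase, Clu, the chaperone clusterin, Steap4, a metalloreductase, and Cmah, which makes a form of sialic acid, rose by 1.69, 1.87, 1.94, 1.75 and 1.49. None of these genes overlapped between the groups, as held for 61% of all genes tested.

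**Figure D3:**
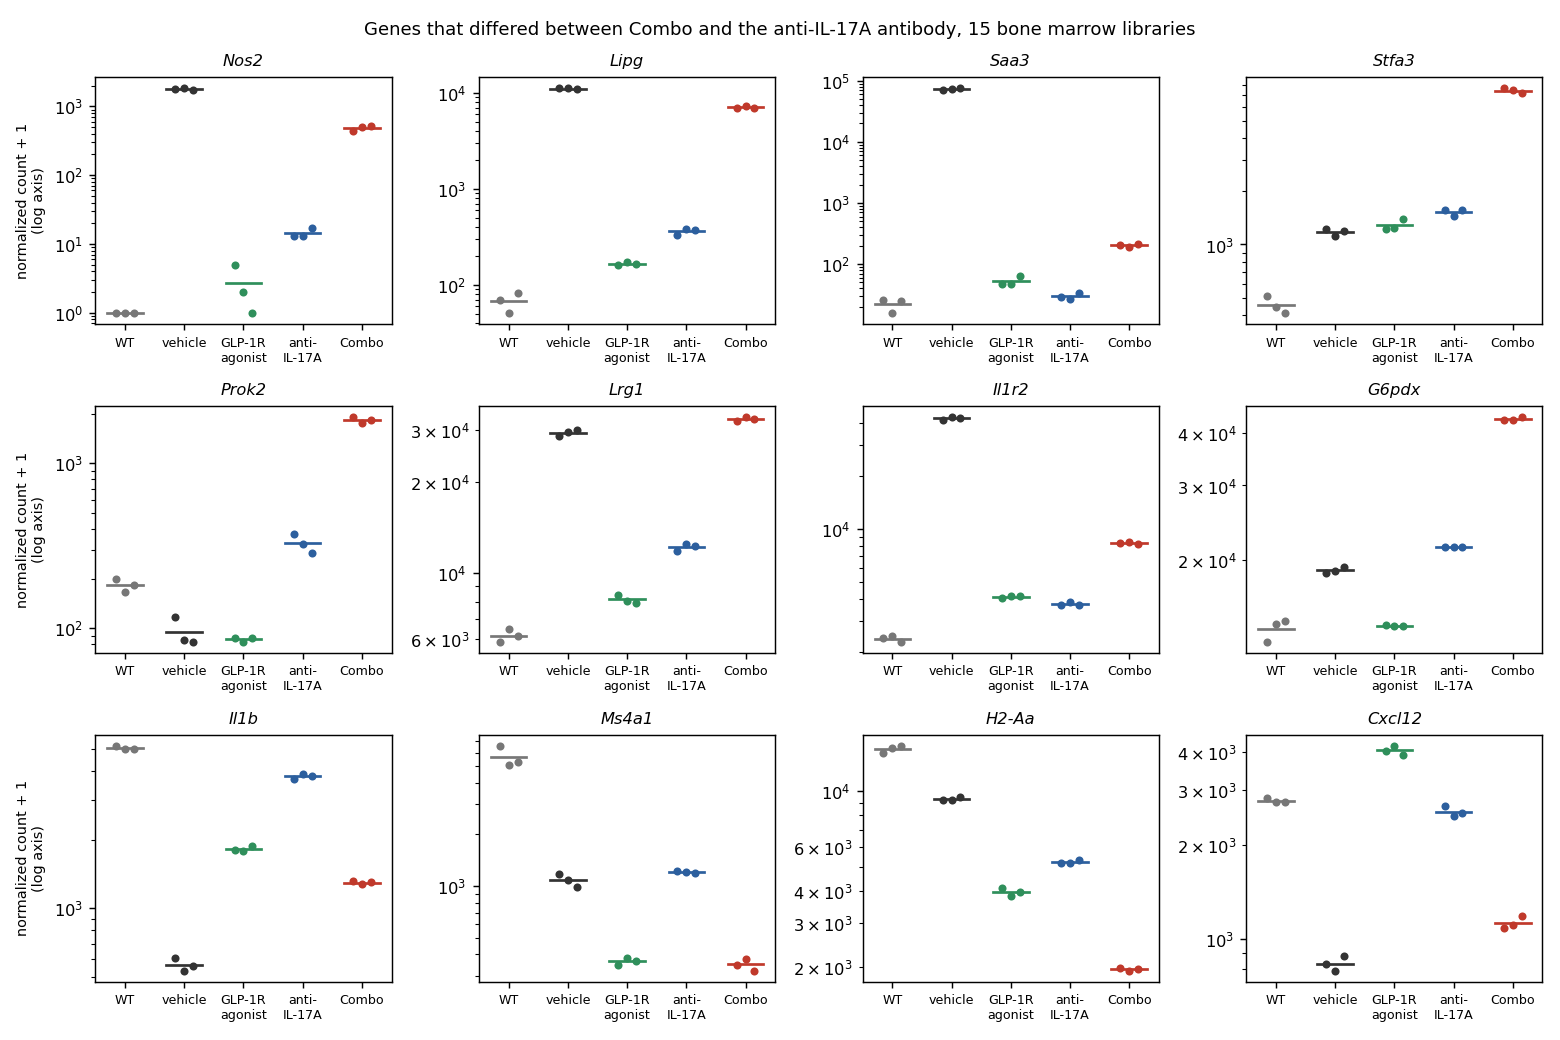
Normalized counts plus 1 (log axes, a scale for each gene) of 12 genes in the 15 BM libraries by group; points are libraries and bars are means. Nos2, Lipg, Saa3, Stfa3, Prok2, Lrg1, Il1r2 and G6pdx are higher in the 3 Combo libraries than in the 3 antibody libraries, and Il1b, Ms4a1, H2-Aa and Cxcl12 are lower, with no overlap.

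A cluster of stefin A genes on chromosome 16 rose together. Stefins are inhibitors of cysteine cathepsins that neutrophils hold in the cytosol, and the mouse has a tandem family of them. The family was chosen after Stfa3 was seen among the 10 highest. Stfa3 (16: 36450537-36455392) had 1555, 1446 and 1555 with the antibody and 7609, 7449 and 7118 in Combo (2.28, SE 0.0499). BC100530 rose from 2221, 2358 and 2339 to 10894, 10356 and 10274 (2.19), Stfa2 from 1998, 2181 and 2131 to 9728, 9573 and 9033 (2.17), and Stfa1 from 2154, 2269 and 2231 to 8672, 8565 and 8326 (1.94). BC117090, at a lower level, had 23, 29 and 24 with the antibody and 111, 108 and 117 in Combo (2.12). Stfa2l1 and Gm5483 were higher within the fold limit, by 0.87 and 0.92, and Gm5416 had 14, 27 and 37 and then 33, 28 and 31, a difference that did not pass the test (0.21, adjusted p = 0.606). The members resemble each other in sequence. Reads of equal fit to several places were left out by the mapping quality limit, so the counts of single members are uncertain to that extent.

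The 250 bases before the RefSeq start of 3 stefin genes (GRCm38.p6) are shown because neighbouring members share much of this stretch, with 80.2% to 83.5% identity in pairwise alignment. Stfa2l1, which was higher only within the fold limit, had 80.3% to 80.8% with Stfa3 and Stfa1 and 89.4% with Stfa2, the highest of the pairs compared. Capitals mark the letters ATTGG, the Y box or inverted CCAAT, searched on both strands, which lies 239 to 242 bases before the start in the 3 shown. It is held by 36.4% of the 10113 promoters of the same length that matched a tested gene. The stretches are chr16:36276898-36277147 on the plus strand for Stfa1, chr16:36408364-36408613 and chr16:36455393-36455642 on the minus strand for Stfa2 and Stfa3.
Stfa1: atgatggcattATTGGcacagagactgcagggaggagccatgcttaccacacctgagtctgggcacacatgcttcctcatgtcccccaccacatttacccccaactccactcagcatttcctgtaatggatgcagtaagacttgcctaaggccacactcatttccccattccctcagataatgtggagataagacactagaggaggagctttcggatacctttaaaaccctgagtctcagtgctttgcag
Stfa2: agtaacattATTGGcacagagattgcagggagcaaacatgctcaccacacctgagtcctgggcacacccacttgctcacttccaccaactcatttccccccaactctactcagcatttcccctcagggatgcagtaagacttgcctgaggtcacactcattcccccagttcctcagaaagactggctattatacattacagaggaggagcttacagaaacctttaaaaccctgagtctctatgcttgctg
Stfa3: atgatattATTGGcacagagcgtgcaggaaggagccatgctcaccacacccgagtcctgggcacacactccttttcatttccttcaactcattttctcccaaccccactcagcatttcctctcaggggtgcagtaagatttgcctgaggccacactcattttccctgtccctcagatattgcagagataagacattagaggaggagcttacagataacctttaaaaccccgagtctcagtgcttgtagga

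Most neutrophil-lineage markers were higher, by small amounts. All 13 immature granulocyte markers were higher at FDR below 0.05 without the fold limit, against 30.9% of all genes, with a median log2 fold change of 0.52 and a range of 0.17 to 0.90, and 0 of them were called. Prtn3, Ms4a3 and Ctsg, which belong to primary granules and their precursors, had 0.90, 0.82 and 0.82. Lcn2, the iron-binding lipocalin of secondary granules, had 194050, 197018 and 191117 with the antibody and 327213, 322857 and 327550 in Combo (0.75, SE 0.0286). Their share of all counts was 5.51% to 5.57% with the antibody and 7.04% to 7.14% in Combo. Of 15 mature neutrophil markers, 11 were higher and 1 lower at FDR below 0.05 (30.9% and 21.7% of all genes), with a median of 0.41, and Il1r2, the decoy receptor of IL-1, was called, with 3731, 3855 and 3725 with the antibody and 8272, 8424 and 8240 in Combo (1.14). Under scaling by library totals Il1r2 had 0.95 and missed the fold limit, while both medians remained above 0 (0.33 and 0.22).

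The 5 most counted genes were all of this lineage. S100a9 and S100a8, the subunits of calprotectin, had 0.46 and 0.66, Ngp, a granule cathelin, had 0.52, Ltf, lactoferrin, had 0.54, and Lcn2 0.75, each above its antibody libraries in all 3 Combo libraries. Of these 5 genes S100a8 varied most among Combo replicates, with 530951, 548901 and 530988 with the antibody and 890822, 875738 and 777859 in Combo. Csf2rb2, the IL-3 receptor beta subunit, was called higher (1.14), and 0.94 when scaled by library totals. In BM, more cells of a type and more RNA per cell cannot be told apart, and this holds for each cell type below.

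The 250 bases before the RefSeq start of 3 of the most counted granule genes are shown with the C/EBP core TTGCNNAA in capitals, searched on both strands. C/EBP factors direct granule gene expression in developing granulocytes. The letters occur in 5 of 12 immature granulocyte markers with a promoter (41.7%) and in 7.77% of all 10113. The same list held the PU.1 core GAGGAAG at the same share, 5 of 12 (41.7%) against 11.3% of all, the Y box in 6 of 12 (50%) against 36.4%, and the EBF core CCCNNGGG in 3 of 12 (25%) against 15.3%. The stretches are chr9:111019042-111019291 and chr9:110419558-110419807 on the plus strand for Ltf and Ngp, and chr2:32387740-32387989 on the minus strand for Lcn2.
Ltf: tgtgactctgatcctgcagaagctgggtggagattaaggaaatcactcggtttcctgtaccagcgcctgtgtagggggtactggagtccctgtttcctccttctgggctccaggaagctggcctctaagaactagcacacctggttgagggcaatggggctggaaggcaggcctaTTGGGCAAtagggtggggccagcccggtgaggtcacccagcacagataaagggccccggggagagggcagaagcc
Ngp: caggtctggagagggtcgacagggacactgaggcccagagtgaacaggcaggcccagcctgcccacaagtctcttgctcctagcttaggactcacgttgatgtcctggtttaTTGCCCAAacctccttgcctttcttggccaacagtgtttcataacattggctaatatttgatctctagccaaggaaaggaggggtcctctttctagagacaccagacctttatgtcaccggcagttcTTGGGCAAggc
Lcn2: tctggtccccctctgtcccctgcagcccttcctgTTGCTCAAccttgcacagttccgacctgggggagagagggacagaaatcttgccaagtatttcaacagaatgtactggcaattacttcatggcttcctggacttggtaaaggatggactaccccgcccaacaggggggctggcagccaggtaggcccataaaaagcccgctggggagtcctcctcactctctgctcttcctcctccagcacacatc

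Most enzymes of sugar use were higher, by small amounts. Of 26 glycolysis and pentose phosphate genes, 22 were higher and 1 lower at FDR below 0.05, with a median of 0.45, against 30.9% higher, 21.7% lower and a median of 0.02 over all genes, and 1 was called. This was G6pdx, glucose-6-phosphate dehydrogenase, the entry step of the pentose phosphate pathway (X: 74409483-74429194), with 21465, 21463 and 21455 with the antibody and 42803, 42990 and 43525 in Combo (1.01, SE 0.0267). Its call rests on the limit, since it had 0.81 when scaled by library totals, 0.999 with DESeq2 and 0.999 without Combo replicate 3. Hypoxia-response genes had 0 called of 19, 11 higher and 3 lower at FDR below 0.05 (against the same 30.9% and 21.7%) and a median of 0.22, with Slc2a1, the glucose transporter GLUT1, at 0.77, Ldha, lactate dehydrogenase, at 0.61, and Pgk1 at 0.51. Mitosis genes had 22 of 25 higher at FDR below 0.05, against 30.9% of all genes, with a median of 0.16, and Plk1, a mitotic kinase, had 0.52. That median had the opposite sign (-0.04) when scaled by library totals. Respiratory chain subunits (median 0.16, 31 of 43 higher at FDR below 0.05, against 30.9%) also changed sign under that scaling (-0.03).

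B cell genes were lower without exception. All 16 B cell markers were called lower, with a median of -1.69 and a range of -2.20 to -1.43, against 4.63% of all genes called lower. Fcer2a, the low-affinity IgE receptor of mature B cells (8: 3681737-3694175), had 235, 278 and 280 with the antibody and 59, 57 and 57 in Combo (-2.20, SE 0.136). Ms4a1, which encodes CD20 (19: 11249675-11266241), had 1229, 1202 and 1195 with the antibody and 347, 377 and 321 in Combo (-1.80, SE 0.119). Ebf1, the factor that commits progenitors to the B lineage (11: 44617317-45008091), fell from 755, 779 and 748 to 197, 218 and 233 (-1.82), and Rag2, of the antigen receptor recombinase, from 148, 182 and 174 to 41, 67 and 37 (-1.81). Pax5 and Id3, factors of the lymphoid program, fell by 1.61 each. The 16 genes together took 0.0593% to 0.06% of counts with the antibody and 0.0161% to 0.0164% in Combo. Tnfrsf13c, the BAFF receptor, fell from 725, 653 and 649 to 158, 168 and 202 (-1.94), and Cpm, a carboxypeptidase, from 416, 344 and 391 to 97, 94 and 142 (-1.79). Together with the Y-linked genes these make up the 10 lowest.

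MHC class II genes were lower in part of the list. Class II molecules present peptides on B cells, dendritic cells and macrophages, and Ciita is the coactivator that switches their genes on. Of 17 class II presentation genes 8 were called lower and 0 higher, against 4.63% and 1.04% of all genes, with a median of -0.63. Ciita had 368, 307 and 343 with the antibody and 138, 134 and 100 in Combo (-1.45, SE 0.118). H2-Aa, the alpha chain, fell from 5164, 5190 and 5343 to 1986, 1938 and 1972 (-1.41, SE 0.0315), H2-Eb1 from 3252, 3266 and 3286 to 1359, 1311 and 1327 (-1.29), and H2-Ob, a chaperone subunit of B cells, from 805, 766 and 770 to 271, 241 and 198 (-1.72). Cd74, the invariant chain, named after its values were seen, fell from 12163, 12317 and 12077 to 4935, 4976 and 5174 (-1.28). The class II genes called had no overlap between the groups, as held for 61% of all genes tested. The factors that bind class II promoters in most cells, Rfx5, Rfxank, Rfxap and Nfya, lay at -0.31, 0.02, 0.06 and 0.06. These factors were named after their values were seen and were not called.

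The 250 bases before the RefSeq start of 4 called class II genes are shown because the promoters of this family carry a shared module. Capitals mark the Y box letters ATTGG, searched on both strands as above. It was present in 8 of the 12 class II genes with a promoter (66.7%), against 36.4% of all 10113, and lay 35 to 90 bases before the start in the genes shown. In the H2-Aa stretch the cAMP response element letters TGACGTCA also occur, which 2.69% of all promoters hold. The stretches are chr17:34287824-34288073 on the minus strand for H2-Aa, and chr17:34305617-34305866, chr17:34238655-34238904 and chr17:34144999-34145248 on the plus strand for H2-Eb1, H2-Ob and H2-DMb2. H2-DMb2, named after its values were seen, had a log2 fold change of -1.13.
H2-Aa: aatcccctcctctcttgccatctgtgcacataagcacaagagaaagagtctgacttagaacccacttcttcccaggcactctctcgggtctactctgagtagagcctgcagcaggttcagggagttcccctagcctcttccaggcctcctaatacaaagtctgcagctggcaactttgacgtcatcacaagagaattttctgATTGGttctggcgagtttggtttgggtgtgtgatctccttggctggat
H2-Eb1: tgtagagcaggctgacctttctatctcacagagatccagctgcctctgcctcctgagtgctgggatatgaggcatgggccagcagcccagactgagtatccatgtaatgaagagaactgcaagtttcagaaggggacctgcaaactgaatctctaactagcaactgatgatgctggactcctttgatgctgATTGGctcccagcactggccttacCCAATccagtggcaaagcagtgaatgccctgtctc
H2-Ob: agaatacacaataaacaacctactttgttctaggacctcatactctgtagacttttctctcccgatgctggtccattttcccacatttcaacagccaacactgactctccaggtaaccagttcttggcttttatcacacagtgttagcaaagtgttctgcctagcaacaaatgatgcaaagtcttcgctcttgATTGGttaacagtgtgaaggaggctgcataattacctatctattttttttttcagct
H2-DMb2: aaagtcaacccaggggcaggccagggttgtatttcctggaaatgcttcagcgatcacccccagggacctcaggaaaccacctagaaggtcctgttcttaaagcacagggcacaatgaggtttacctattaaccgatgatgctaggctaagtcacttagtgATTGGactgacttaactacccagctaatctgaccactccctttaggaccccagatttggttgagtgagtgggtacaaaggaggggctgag

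Of the other motifs among the 6 searched, the EBF core CCCNNGGG was in 2 of 13 B cell promoters (15.4%) against 15.3% of all. The NF-kB core GGGANTTTC was in 1.82% of 110 promoters of called higher genes and 0.891% of 449 of called lower genes, against 0.89% of all. The cAMP response element was in 1.82% and 1.11%, and the PU.1 core GAGGAAG in 11.8% and 12.7%, against 2.69% and 11.3%.

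Marker lists of other lymphoid and myeloid cells had negative medians of differing size. The share of all genes called lower was 4.63%. Of 10 NK cell markers 6 were called lower (median -1.22). At FDR below 0.05 without the fold limit 9 were lower and 1 higher (0.43), against 21.7% and 30.9% of all genes. The list took 0.0166% to 0.0167% of counts with the antibody and 0.0149% to 0.015% in Combo. Ncr1, the activating receptor NKp46, had 225, 227 and 232 with the antibody and 70, 74 and 71 in Combo (-1.67). Gzma, granzyme A, fell from 449, 431 and 424 to 124, 118 and 175 (-1.64). Klrb1c and Klrd1, NK receptors, fell by 1.62 and 1.49. Of 14 dendritic cell markers 8 were called lower (median -1.17), among them Ly6d, an antigen shared with lymphoid progenitors, from 1715, 1774 and 1682 to 650, 606 and 586 (-1.49), and Cd209a, from 70, 70 and 67 to 24, 14 and 29 (-1.63). T cell markers had 1 of 13 called, close to the 4.63% of all genes, namely Il7r, the IL-7 receptor that lymphoid progenitors share, from 854, 936 and 934 to 310, 379 and 324 (-1.43), with 11 lower at FDR below 0.05 and a median of -0.77, and 2 were called without antibody replicate 3, Combo replicate 1 or Combo replicate 3. Plasma cell markers had 2 of 7 called lower (median -0.79), with Irf4, also a B and dendritic cell factor, at -1.62. At FDR below 0.05 without the fold limit 5 of them were lower and 1 higher. Xbp1 had the highest value of that list (0.56).

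Macrophage markers had 4 of 14 called lower, against 4.63% of all genes (median -0.93). Mrc1, the mannose receptor CD206, fell from 1343, 1393 and 1429 to 596, 649 and 707 (-1.09). C1qb, of complement C1q, fell from 1270, 1224 and 1194 to 612, 608 and 593 (-1.02), and Spic, the factor of red pulp-type macrophages, by more than 1 on the log2 scale. Stromal and endothelial markers had 7 of 18 called lower (median -0.92), with Cxcl12, the chemokine that retains progenitors in marrow, from 2672, 2484 and 2537 to 1078, 1107 and 1183 (-1.19). Monocyte markers had 1 of 14 called lower, close to the 4.63% of all genes, with 4 higher and 10 lower at FDR below 0.05 (30.9% and 21.7% of all genes) and a median of -0.34. Megakaryocyte markers had 3 of 13 called lower, with Ppbp, a platelet chemokine, from 273, 280 and 293 to 112, 107 and 116 (-1.34). Without antibody replicate 2 or Combo replicate 2, 1 megakaryocyte marker and 0 monocyte markers were called. All 12 erythroid markers were lower at FDR below 0.05, against 21.7% of all genes, but 0 were called (median -0.45). The largest was Alas2, the first enzyme of heme synthesis in red cell precursors, from 7437, 7509 and 7822 to 4001, 4058 and 3981 (-0.92), and Tspo2 and Hemgn, also of red cell precursors, had -0.68 and -0.59. Stem and progenitor markers had 0 of 16 called and a median of -0.28, and mast cell, basophil and eosinophil markers 0 of 16 and -0.21.

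**Figure D4:**
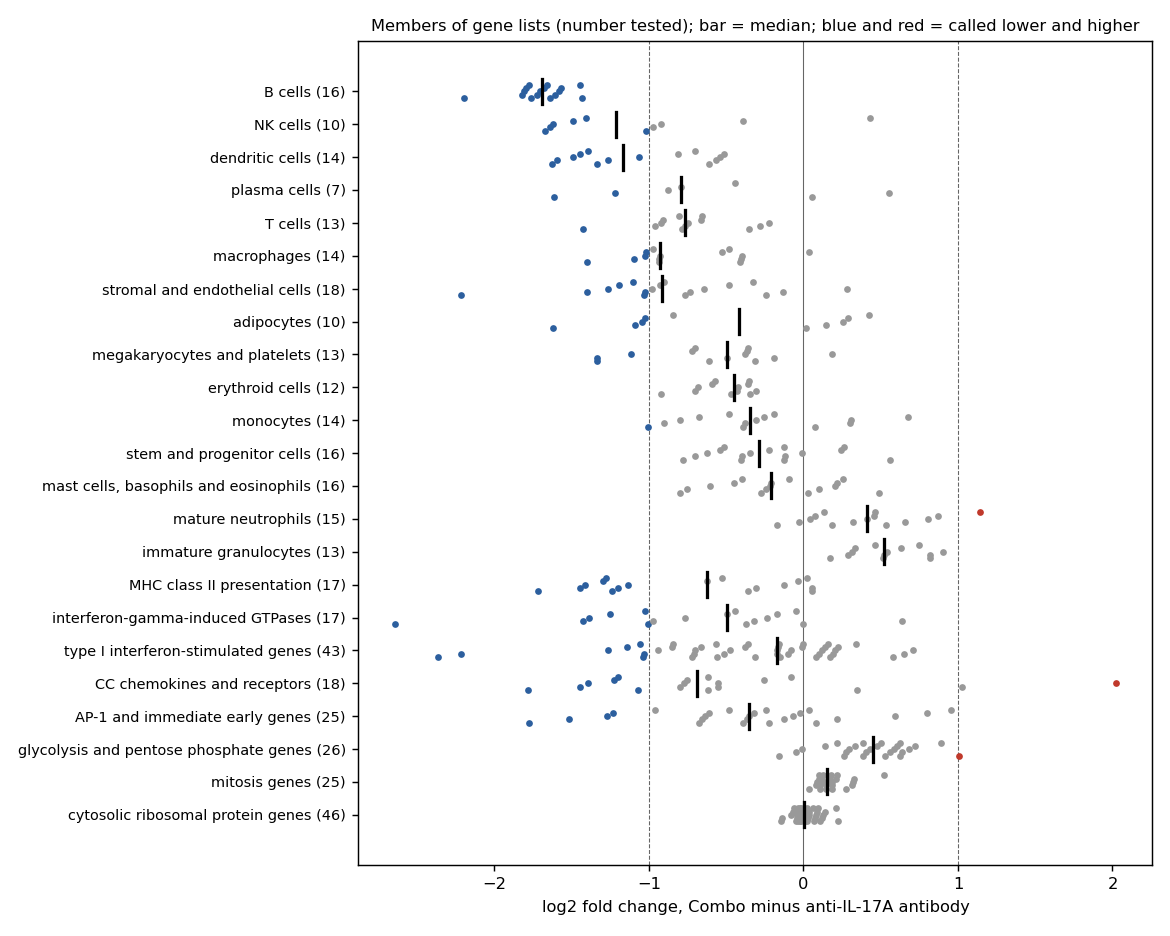
Log2 fold change of Combo minus antibody (x axis) of each tested member of 23 gene lists (rows, number tested in brackets), with medians as bars, called genes in blue (lower) and red (higher) and others in gray. All 16 B cell markers lie left of the fold limit, and the 13 immature granulocyte markers lie between 0.17 and 0.90.

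Cytokine genes were called both ways, against 1.04% of all genes called higher and 4.63% lower. In the IL-1 and inflammasome list 1 of 20 genes was called higher, Il1r2, and 4 lower. Il1b, the inflammatory cytokine (2: 129364570-129371139), had 3722, 3906 and 3834 with the antibody and 1312, 1277 and 1305 in Combo (-1.56, SE 0.039), and Nlrp1b, an inflammasome sensor, had 73, 69 and 78 and then 21, 20 and 26 (-1.72). Chemokine genes of the CC family had 1 of 18 called higher and 6 lower. Ccr7, the homing receptor of lymphocytes and dendritic cells, fell from 232, 249 and 254 to 58, 77 and 79 (-1.78), and Ccr6, another lymphocyte receptor, by 1.45. Ccl8, a monocyte chemoattractant, rose from 17, 16 and 11 to 55, 66 and 61 (2.03). In the CXC family Cxcr5, the B cell follicle receptor, fell from 331, 296 and 307 to 114, 98 and 87 (-1.64), while its ligand Cxcl13 had 4 to 10 counts and then 34 to 35 (2.43).

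Against the same background of 1.04% higher and 4.63% lower, acute-phase and antimicrobial genes had 2 of 16 called higher, Nos2 and Saa3, and 2 lower at low counts: Arg1, arginase, with 17, 26 and 26 and then 9, 5 and 6 (-1.73), and Ptx3, a pentraxin, with 26, 37 and 20 and then 7, 13 and 8 (-1.55). Of 23 TNF and NF-kB genes 2 were called lower, a share near the background, with Cd40, a costimulatory receptor of B and dendritic cells, from 212, 188 and 175 to 42, 76 and 64 (-1.66), the only one called without antibody replicate 2. Immediate early genes had 4 of 25 called lower, with Egr3 from 148, 175 and 148 to 42, 43 and 52 (-1.77), Atf3 by 1.52 and Dusp2 by 1.27. Type I interferon-stimulated genes had 7 of 43 called lower and a median of -0.17, with Ifi27l2a from 758, 721 and 764 to 283, 355 and 295 (-1.27) and Mx1, an antiviral GTPase, from 142, 156 and 162 to 66, 82 and 62 (-1.14). Of 17 interferon-gamma-induced GTPases 6 were called lower (median -0.49), with Gbp9 from 347, 368 and 357 to 145, 104 and 150 (-1.42), and 3 were called without antibody replicate 1. The 20 MHC class I genes had 0 called and a median of 0.00.

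Of the 7 tested genes of the drug targets and the model, 0 were called by edgeR. Without the fold limit 4 passed FDR below 0.05, 3 higher and 1 lower. That share was near that of all genes, of which 7015 of 13353 passed. Glp1r, Lep and Il17rc were not among the genes tested. Il17a had at most 1 count in any of the 6 libraries, so no change could be seen at this depth, and Il17f had 1 to 8 normalized counts (adjusted p = 0.882). Il17ra, the receptor subunit, had 13022 to 13432 with the antibody and 14286 to 14401 in Combo (0.12, adjusted p = 0.000115), Ptpn11 had 0.18, Ptprc, which encodes CD45, 0.10 and Lyz2, the gene of the LysM-Cre driver, 0.02 (adjusted p = 0.451). These 4 values turned negative when scaled by library totals. Lepr, the leptin receptor, had 84, 102 and 94 and then 63, 59 and 57 (-0.64). Of 17 IL-17A-induced genes 6 were higher and 7 lower at FDR below 0.05, against 30.9% and 21.7% of all genes. Of the 17 genes 1 was called lower, a share near the 4.63% of all genes. This was Ptgs2, cyclooxygenase 2, from 467, 449 and 513 to 151, 133 and 131 (-1.78). Of 24 cAMP, PKA and CREB response genes, the branch that GLP-1R uses, 2 were called lower and 0 higher, a share near the 4.63% of all genes. The better counted was Nr4a1, an immediate early nuclear receptor, from 2489, 2601 and 2532 to 1034, 1168 and 1132 (-1.19). Of 27 Shp2, Ras and ERK feedback genes 2 were called lower, also near that share, with Dusp5, an ERK phosphatase, from 214, 193 and 197 to 97, 82 and 76 (-1.24). Of 26 incretin, insulin and IGF genes 3 were called lower, with Igf1 from 203, 206 and 207 to 90, 93 and 93 (-1.16) and Dpp4, the protease that inactivates GLP-1, from 827, 894 and 764 to 393, 370 and 382 (-1.12). Without antibody replicate 3, 5 genes of that list were called.

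Lipid genes were split. Of all genes 1.04% were called higher and 4.63% lower, and 30.9% and 21.7% passed FDR below 0.05 without the fold limit. Apart from Lipg, Cd36, the fatty acid receptor, fell from 1223, 1197 and 1206 to 487, 475 and 468 (-1.34) and Lpl, lipoprotein lipase, from 1387, 1339 and 1398 to 677, 639 and 625 (-1.09), among 2 genes called higher and 3 lower of 28. Of 29 cholesterol and fatty acid synthesis genes, 22 were higher and 3 lower at FDR below 0.05 (median 0.30), yet the 2 called were lower, with Scd1, which desaturates fatty acids, from 1893, 1961 and 1966 to 835, 721 and 768 (-1.32). Adipocyte markers had 4 of 10 called lower and a median of -0.42, with 5 members above 0 and 5 below. Without antibody replicate 2, 1 of them was called, and 2 were called without Combo replicate 1 or 3. Cytosolic ribosomal protein genes (46) and DNA replication genes (30) had 0 called and medians of 0.00 and 0.05, of opposite sign under scaling by library totals (-0.19 and -0.15).

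Growth factor, phagocyte and lysosomal genes had few calls, against 1.04% of all genes called higher and 4.63% lower. Of 14 colony-stimulating factors and receptors, Csf2rb2 was called higher and Kitl, the stromal ligand of Kit, lower, from 87, 118 and 81 to 50, 49 and 41 (-1.03). Kitl had -0.846 without antibody replicate 2 and -0.944 without Combo replicate 3, and missed the fold limit in both. Socs2, a feedback inhibitor of cytokine receptors, fell from 150, 194 and 156 to 59, 66 and 61 (-1.44). Clec7a, the beta-glucan receptor dectin 1, fell from 3226, 3262 and 3327 to 1599, 1638 and 1566 (-1.03). It was the only call among 19 NADPH oxidase and phagocyte receptor genes, a share near the 4.63% of all genes. In that list 14 genes were higher and 5 lower at FDR below 0.05, against 30.9% and 21.7% of all genes. Ctsk, the cathepsin of osteoclasts, fell from 315, 314 and 319 to 98, 121 and 119 (-1.49), and Atp6v0d2, a proton pump subunit of osteoclasts and macrophages, from 113, 100 and 94 to 46, 34 and 47 (-1.26). Ctla4, an inhibitory T cell receptor, fell from 77, 60 and 73 to 38, 20 and 18 (-1.46). Of 21 Toll-like receptor and adaptor genes 0 were called by edgeR. Without the fold limit 12 were higher and 4 lower at FDR below 0.05, against the same 30.9% and 21.7% of all genes. Tlr1 had 0.78, and Tlr9, which senses DNA, -0.85, or -1.042 and past the limit when scaled by library totals. Without Combo replicate 3, 1 gene of the list was called.

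The agonist without the antibody was taken from agonist-alone and vehicle libraries, which share no library with the comparison above. There 1015 genes (7.6%) were called higher and 1213 (9.08%) lower. The difference between the agonist's effects with and without the antibody was tested directly and was called for 1280 genes (9.59%) toward higher with the antibody and 1539 (11.5%) toward lower. Of the 139 genes called higher in Combo vs antibody, 65 (46.8%, or 5.36% of the genes lower with the agonist alone) were called lower with the agonist alone and 6 (4.32%) higher. Of the 618 genes called lower, 186 (30.1%) were also lower with the agonist alone, 140 (22.7%) were higher, and 292 (47.2%) were not called. Genes called in opposite directions differ by construction. Of the 186 genes lower in both, the difference was called for 59. The sex-linked genes also differed in opposite ways between these pairs, as given above.

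**Figure D5:**
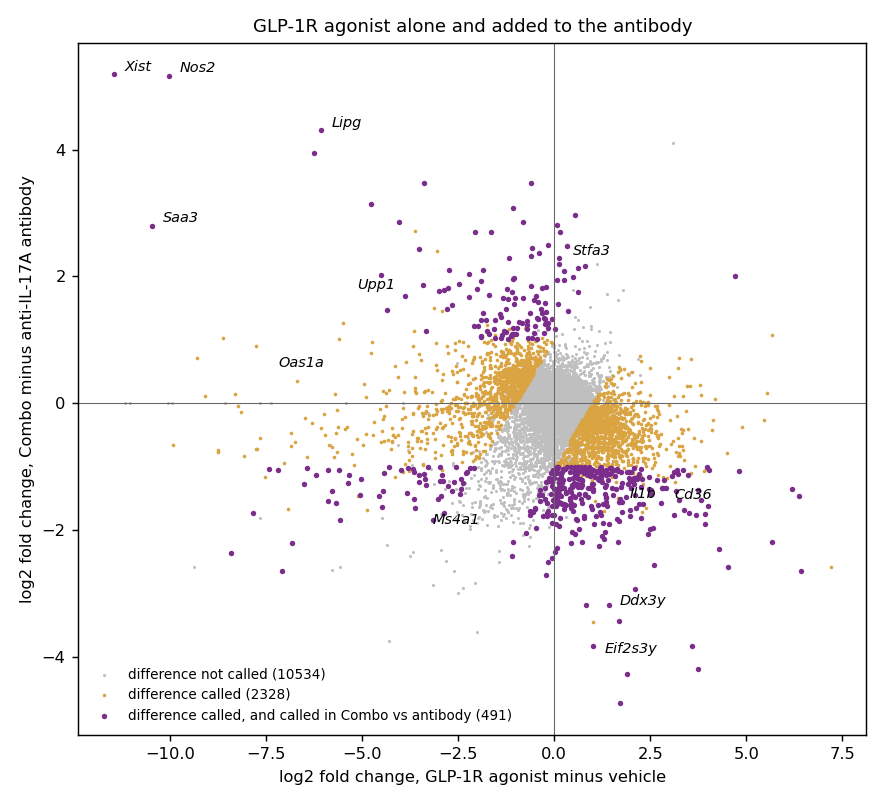
Log2 fold change of each gene when the agonist was added to the antibody (y axis) against that for the agonist alone vs vehicle (x axis), gray where the difference of the 2 effects was not called (10534 genes), yellow where it was (2328) and purple where the gene was also called in Combo vs antibody (491). Nos2, Lipg, Saa3 and Xist lie at the upper left, higher when added and lower alone, and Ms4a1 is lower in both.

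The genes with opposite effects included those with the greatest increase in Combo. Nos2 had 1813, 1831 and 1712 normalized counts with vehicle and 4, 1 and 0 with the agonist alone, and Lipg had 11165, 11198 and 10992 and then 158, 171 and 165. Saa3 had 70778, 73811 and 75149 and then 47, 46 and 63. With the antibody alone the levels were already low (12 to 16, 332 to 378 and 26 to 33), far below vehicle. Il1b went the other way: 604, 532 and 555 with vehicle and 1807, 1794 and 1872 with the agonist alone (1.69), against the fall of 1.56 when added (difference -3.25, adjusted p = 8.26e-36). Cd36, Cxcl12 and Mrc1 rose by 2.84, 2.28 and 3.13 with the agonist alone and fell when it was added. Stefin A genes differed less alone: Stfa3 and Stfa1 had 0.12 and 0.07 with adjusted p = 0.0544 and 0.0786, and the difference was called for both (2.16 and 1.87).

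Lists also differed with and without the antibody, against 9.59% of all genes called toward higher and 11.5% toward lower for the difference. With the agonist alone 7.6% of all genes were called higher and 9.08% lower. All 43 type I interferon-stimulated genes were called lower with the agonist alone (median -4.99), against 7 of 43 when added, and the difference was called for all 43. Mx1 had 9210, 9251 and 9043 with vehicle, 119, 120 and 135 with the agonist alone and 142, 156 and 162 with the antibody alone. Of 12 erythroid markers 9 were called higher with the agonist alone (median 1.25), and the difference was called lower for all 12. Of 16 B cell markers 12 were called lower and 1 higher with the agonist alone (median -1.57), and the difference was called for 2, Fcer2a (-3.85) and Rag2 (-1.97), a share close to the 11.5% of all genes. For Ms4a1 the difference was -0.22 (adjusted p = 0.287), with -1.58 alone and -1.80 when added. For H2-Aa it was -0.19, with -1.22 alone and -1.41 when added. Immature granulocyte markers had 0 of 13 called higher and 2 lower with the agonist alone (median -0.26), and the difference was called higher for 5.

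Reads that lie where 2 genes overlap were counted for both without regard to strand, so values of genes with shared exon sequence are uncertain in part: 12.6% of the exon length of Xist, 13.6% of G6pdx, 13.9% of Svep1, 15.5% of Alas2, 18.4% of BC100530 and 22.1% of Dusp5 is shared with another gene.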

How the data were processed

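Whole BM RNA (polyA, unstranded, paired-end) was sequenced in 15 libraries, 3 in each of 5 groups, and groups were taken from the sample labels. STAR 2.7.2a (mm10) and featureCounts 2.0.1 (GENCODE M22) were used by the authors, who ignored strand, set a mapping quality limit and let a read count toward every gene it overlapped. The deposited values are raw counts per gene, and the sources used here state no filter on low counts, though no gene had fewer than 55 counts summed over all 15 libraries. Counts on genes per library bound the counting error.

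The tests ran in edgeR 4.0.16 (R 4.3.3): TMM scaling, filterByExpr (0 genes removed) and 1 robust quasi-likelihood fit of 15 libraries, 2-sided, with Benjamini-Hochberg adjustment over all 13353 genes. A normalized count is the count scaled from its own effective library size to the mean of the 15. Each SE is the log2 fold change over the square root of F. P-values measure the spread between the 3 libraries of a group, which may not include that between mice. On simulated data for Combo vs antibody, 98 of 100 genes changed by 1.5 and 100 of 100 changed by 2 (log2) were recovered among 13320 genes. The changed genes averaged at least 10 counts with the antibody, and the spread was that fitted to these replicates. The simulation therefore does not cover changes near the fold limit, lower counts or spread between mice. The 53 lists of genes with a tested member were described by counts and medians, without a set test. Named genes were the 10 highest and 10 lowest called genes averaging at least 100 counts without overlap, up to 4 members per list by size, pathway genes, 6 genes by the difference of agonist effects and the 5 most counted; others are named as chosen after their values were seen. Members and lists were chosen with earlier results of these data known. Positions are from GENCODE M21 on GRCm38 (12852 symbols matched), and promoter sequence from RefSeq (10113 genes matched). Alternatives were other scalings, DESeq2 1.42.0, filters and fold limits, fewer libraries and a replicate block. Adipose tissue macrophage libraries were not used here.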

Additional observations from a re-analysis of the deposited data

Results flagged for a closer look

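The agonist's effect differed with and without the antibody for 2819 genes, by the test of that difference in the edgeR fit of 15 libraries. Each value here is a log2 fold change of Combo vs antibody minus that of agonist vs vehicle, and each passed that test.

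Among the genes highest in Combo vs antibody, the difference was 15.21 for Nos2, 13.27 for Saa3, 10.38 for Lipg, 4.34 for F11r, 3.03 for Entpd3, 2.64 for Prok2, 2.54 for Svep1, 2.16 for Fah and 2.16 for Stfa3. Agonist-alone libraries held 0 to 4 normalized counts of Nos2, so the size of its difference rests on few counts there.

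For the sex-linked genes it was 16.65 for Xist, -4.86 for Eif2s3y, -5.13 for Uty, -4.02 for Kdm5d and -4.61 for Ddx3y, and agonist-alone libraries held 0 to 6 normalized counts of Xist. The sex of the sequenced cells and the treatments cannot be told apart here. Among the other genes lowest in Combo it was -3.85 for Fcer2a and -1.97 for Rag2.

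The genes with the smallest adjusted p of the difference were Lipg, Il1r2 (4.49), Ifitm3 (4.51), Oas3 (4.65), Plac8 (2.86) and Oas1a (7.04), of which Ifitm3, Oas3 and Oas1a are interferon-induced antiviral genes. Oas1a had 12125, 11539 and 11681 normalized counts with vehicle, 127, 103 and 108 with the agonist alone, 405, 416 and 431 with the antibody and 510, 527 and 550 in Combo. Both antibody-treated groups and the agonist-alone group lay far below vehicle.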

How the results depend on the processing

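The counts of called genes for Combo vs antibody moved past 1.5 times under 3 settings. With no fold limit 7015 genes were called (4121 higher, 2894 lower), with glmTreat 193 (68 and 125), and scaling by library totals gave 965 lower. The other comparisons moved under the fold settings only: without the limit agonist vs vehicle had 9717, the difference of agonist effects 9162, antibody vs vehicle 9750 and vehicle vs WT 10227, and with glmTreat 1417, 1750, 1244 and 1696. DESeq2 called 763 genes, 741 of them shared with the 757 of edgeR. Leaving out 1 library at a time gave 719 to 759. Scaling by library totals shifted the median log2 fold change of all genes from 0.02 to -0.17 and made 90.4% of calls lower ones, against 81.6%. The medians of 12 lists changed sign under it. It turned the direction of Ddx3x (-0.019), Ptpn11 (-0.012), Il17ra (-0.078), Ptprc (-0.095), Lyz2 (-0.177), Il17f (-0.043), Oas3 (-0.002), Rfxank (-0.174), Rfxap (-0.137) and Nfya (-0.137). With only the 6 libraries Lyz2 had -0.022 and Rfxank -0.02. Leaving out 1 library moved Il17f between -0.608 (Combo replicate 1) and 0.499 (antibody replicate 1), with -0.339 without antibody replicate 2, and Il17a between -2.265 (antibody replicate 2) and 0 (antibody replicate 1), both at a few counts. Rfxank ranged from -0.025 (without antibody replicate 1) to 0.075 (without antibody replicate 2), and Gm5416 from -0.067 (without antibody replicate 1) to 0.551 (without antibody replicate 3). G6pdx had 0.999 with DESeq2 size factors and 0.97 with only the 6 libraries.

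With the replicate number as a block 761 genes were called, 749 of them shared. Same-numbered Combo and antibody libraries had deviations correlated at 0.01, 0.02 and -0.01, and not every library was closest to its own number. No pairing by number was seen. The deviations between replicates were small, so these values cannot decide whether the numbers pair the samples. The block changed no call of the lists by over 1.5 times. Genes under 100 counts limit precision, since 493 of 757 calls lie there.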

Other observations

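Called genes lay on all 19 autosomes and on both sex chromosomes. Of 416 X-linked genes tested 5 were called higher and 26 lower in Combo vs antibody, against 1.04% and 4.63% of all genes. All 4 Y-linked genes tested were called lower.

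Of further lists, some with a member named above, checkpoint genes had 2 of 17 called lower (median -0.48), against 4.63% of all genes, apoptosis regulators 3 of 25 (-0.04), lysosomal hydrolases 2 of 28 (0.01, and -0.18 when scaled by library totals), and lineage transcription factors 4 of 34 (-0.34). NRF2 antioxidant genes (20) and unfolded protein response genes (24) had 0 called by edgeR and medians of 0.08 and 0.25. At FDR below 0.05 without the fold limit, 9 NRF2 genes were higher and 7 lower. In the unfolded protein response list 13 were higher and 6 lower, against 30.9% and 21.7% of all genes. The NRF2 median was -0.11 when scaled by library totals, and that of the Toll-like receptor list went from 0.13 to -0.07. Heme and iron genes had 1 of 22 called higher, against 1.04% of all genes, and a median of -0.34.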
